A study of Mus musculus with 18 samples.

Results

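Fresh basophils were set against cultured mast cells on 6 of the 18 single-dye microarrays of a mouse study, taken by sample title, with 3 arrays in each group. The study's question for these arrays was how the transcripts of basophils differ from those of mast cells. Its other 12 arrays held basophils cultured for 5 days from Cebpa +/+ or Cebpa f/f mice carrying RosaYFP/creER, with or without 4-hydroxytamoxifen. The fresh basophils came from C57Bl/6 bone marrow, collected 3 days after the mice were injected with interleukin-3 bound to an antibody against it, a treatment that expands basophils. The mast cells were grown from C57Bl/6 bone marrow for 4 weeks in medium with 20 ng/ml interleukin-3, and the labels name no sorting step or stem cell factor for them. Both groups had no 4-hydroxytamoxifen, and the labels give no engineered allele for either. How the basophils were purified, how pure they were, and whether the arrays of a group came from separate mice or cultures is not stated in the labels. The p-values therefore measure only how far these arrays spread, and part of that spread can be technical. One cell type was taken directly from mice and the other from culture, so cell type and culture cannot be told apart in this comparison.

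Basophils and mast cells are the haematopoietic cells that carry the high-affinity IgE receptor and store histamine in granules. Basophils are short-lived, circulate in blood and release interleukin-4 quickly. Mast cells are long-lived, sit in tissues under the control of the receptor Kit, and pack their granules with chymases, tryptases and heparin. The transcription factors C/EBPα, of granulocytes, and MITF, of mast cells and pigment cells, are known for opposite roles in the split between both lineages.

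Median probe intensity was 36 to 42 on the basophil arrays and 26 to 31 on the mast cell arrays, and the share of probes brighter than an intensity of 30 was 52.8 to 55.2% in the first and 48.6 to 50.5% in the second. Values below are intensities after quantile normalization over the 6 arrays. Fold changes are log2 differences of (intensity + 16), fresh basophils minus mast cells, with their SE (n = 3 arrays each). A gene under an intensity of 30 on all 3 arrays of a group counts as at background there, and its fold is given only as a lower bound. "Higher" and "lower" are used for genes with an adjusted p under 0.05 in limma's test. One probe stood for each of 19084 genes. Of these, 3675 (19.3%) were higher and 4366 (22.9%) lower in fresh basophils. At least 2-fold differences were found for 1558 genes (8.16%) that were higher and 1312 genes (6.87%) that were lower, which is the background against which the gene groups below are read. Of the called genes, 294 higher and 263 lower ones were at background in both groups, so their difference is of dim signal. For most gene groups, counts of members past the test are followed by the members that also differed at least 2-fold. Over all genes the median log2 fold change was -0.05, and where a gene group's median is given it is on the same scale. Where setting groups at background to the limit of 30 moved such a median by over 0.1, the median at the limit is given too. Normalization set the balance of directions: without it, 6776 genes (78.8% of the calls, against 45.7% with it) were higher and 1826 lower, and the median of all genes was 0.19.

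**Figure D1:**
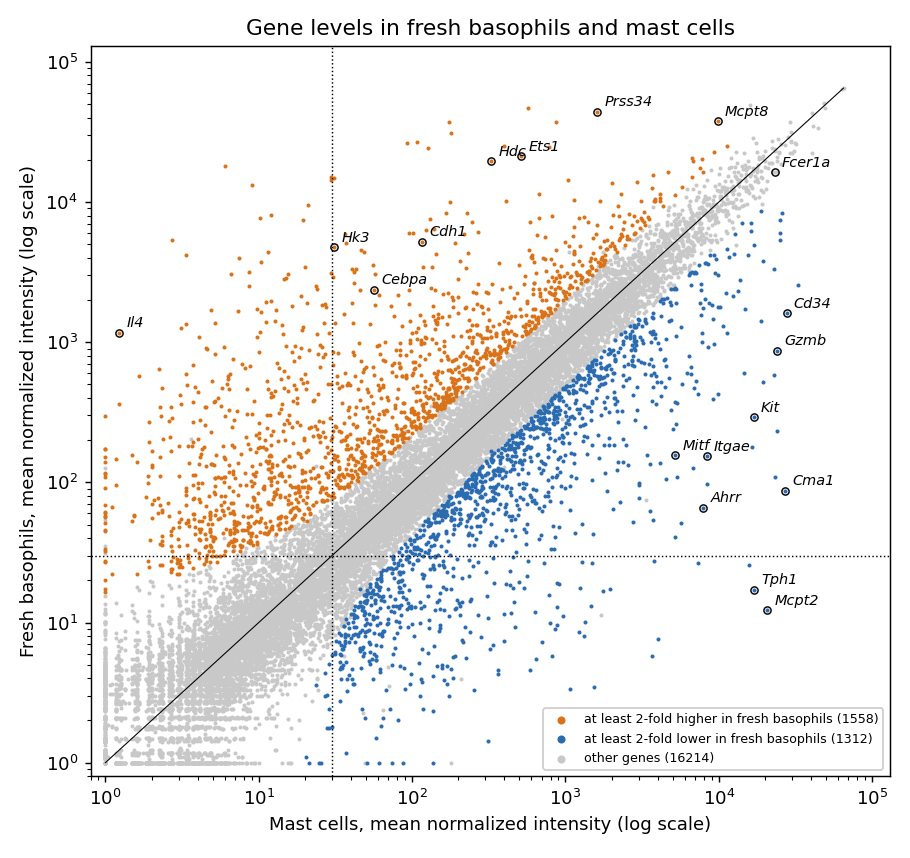
Mean normalized intensity of each of 19084 genes in fresh basophils (vertical axis) against mast cells (horizontal axis), both on log axes, with values under 1 drawn at 1. Genes at least 2-fold higher in fresh basophils (1558) lie above the diagonal in orange and genes at least 2-fold lower (1312) below it in blue; the dotted lines mark the background limit of 30.

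All 6 marker genes passed the test, as did 42.1% of all genes in either direction. Cebpa read 2352, 2519.8 and 2238 in fresh basophils, against 57.5, 64.7 and 46.3 in mast cells (5.05 ± 0.12, adjusted p = 2.19e-08). Mitf read 154, 156 and 158 in fresh basophils and 5744, 4922 and 4959 in mast cells (-4.92 ± 0.10, adjusted p = 1.11e-08). The 2 factors ran in opposite directions, and each was above background in both groups. The basophil protease Mcpt8 read 38221, 36864 and 38221 in fresh basophils and 9399.5, 10214 and 9806 in mast cells (1.94 ± 0.09, adjusted p = 8.67e-07). Its transcript was thus also bright on the arrays of the mast cell cultures, for which the labels name no sorting step. The tryptase-like protease Prss34 read 43948, 44408 and 44408 in fresh basophils, against 1537, 1566 and 1732 in mast cells (4.77 ± 0.09, adjusted p = 9.43e-09). The other 2 markers were at the opposite end. The chymase Mcpt2 read 12, 12.7 and 12.2 in fresh basophils and 20458, 23134 and 18647 in mast cells. Tph1, the first enzyme of serotonin synthesis, read 15.3, 14.3 and 22 in fresh basophils and 17413, 17052 and 16728 in mast cells. Mcpt2 and Tph1 lay at background on all 3 basophil arrays, and were at least 692-fold and at least 569-fold lower there. Among 19 listed basophil genes, 16 were higher and 1 lower (median 2.20), and among 16 listed mast cell genes, 1 was higher and 13 lower (median -5.35). Both lists were drawn up with values of these arrays known.

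**Figure D2:**
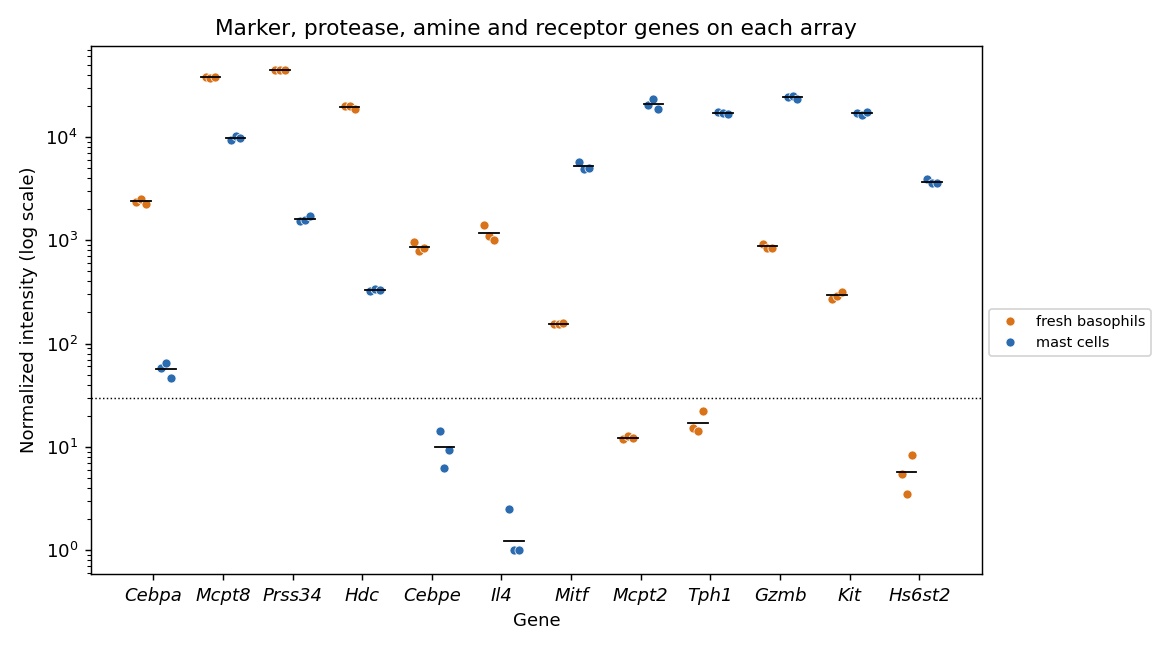
Normalized intensity on a log axis of 12 genes on the 3 fresh basophil arrays (orange, left of each pair) and the 3 mast cell arrays (blue, right), with values under 1 drawn at 1 and the mean of each group as a bar; the dotted line is the background limit of 30. Cebpa, Mcpt8, Prss34, Hdc, Cebpe and Il4 are higher in fresh basophils, and Mitf, Mcpt2, Tph1, Gzmb, Kit and Hs6st2 in mast cells.

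Markers of other marrow cells were read on the same arrays. In these bulk samples, fewer cells of a type and less RNA per cell cannot be told apart. Of 20 neutrophil markers, 18 were higher and 0 lower in fresh basophils, with a summed intensity of 127172 to 132501 against 6728 to 8169.7 in mast cells. The probes of S100a8 and Olfm4 were at background on all 6 arrays. S100a9, in contrast, read 23991.7, 23991.7 and 24431.7 in fresh basophils and 138.5, 121.5 and 119 in mast cells. Eosinophil markers were higher in 6 of 7 and lower in 1 (sums of 48304 to 49682 against 647 to 748), with the granule protein gene Prg2 at 36864, 37559 and 36864 in fresh basophils and 156, 165 and 204 in mast cells. Monocyte and macrophage markers were higher in 20 of 24 and lower in 3 (71503 to 72706 against 27291 to 30673). Cx3cr1, one of the lower ones, made up most of the sum in mast cells (its values are given below). The erythroid sums were 3143 to 3184 in fresh basophils and 2298 to 2425 in mast cells (8 of 13 higher and 1 lower), and the megakaryocyte sums 3458 to 4047 in fresh basophils and 3638 to 4035 in mast cells (7 of 12 higher and 3 lower).

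Lymphoid markers were more often at background. Of 19 T and NK cell markers, 9 were at background in both groups and 6 were higher and 3 lower, and Nkg7 made up most of the sum of 4729.8 to 5125 in fresh basophils, against 456 to 472 in mast cells. Of 18 B cell and plasma cell markers, 7 were at background in both groups and 6 were higher and 0 lower, the higher ones including the immunoglobulin joining chain Jchain (at least 19.8-fold), with sums of 26587 to 28999.7 in fresh basophils and 26853 to 28449 in mast cells that rest mainly on Xbp1. Of 18 dendritic cell markers, 12 were higher and 2 lower (sums of 27810.5 to 29729 in fresh basophils and 11858 to 14297 in mast cells), whereas Siglech, Xcr1 and Clec9a, which define dendritic cell subsets, were at background on all 6 arrays. Several of the genes described next are also expressed by neutrophils, eosinophils or macrophages, and the part of such cells in the basophil values was not tested.

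Early response genes, which cells switch on soon after handling or stimulation, were higher in 33 of 40 and lower in 2 (31 and 0 at least 2-fold, median 1.91), including the heat shock genes Hspa1a (at least 56.7-fold) and Hspa1b (6.19 ± 0.11); as Hspa1a and Hspa1b are near-identical, the split between their probes is uncertain. Interferon-stimulated genes were higher in 21 of 37 and lower in 7 (15 and 2 at least 2-fold, median 0.58). Rtp4 (4.42 ± 0.10) and Cmpk2 (3.57 ± 0.10) were among the higher ones, and Oas3 (-2.74 ± 0.12) and Ifitm2 (-0.91 ± 0.11) among the lower ones.

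**Figure D3:**
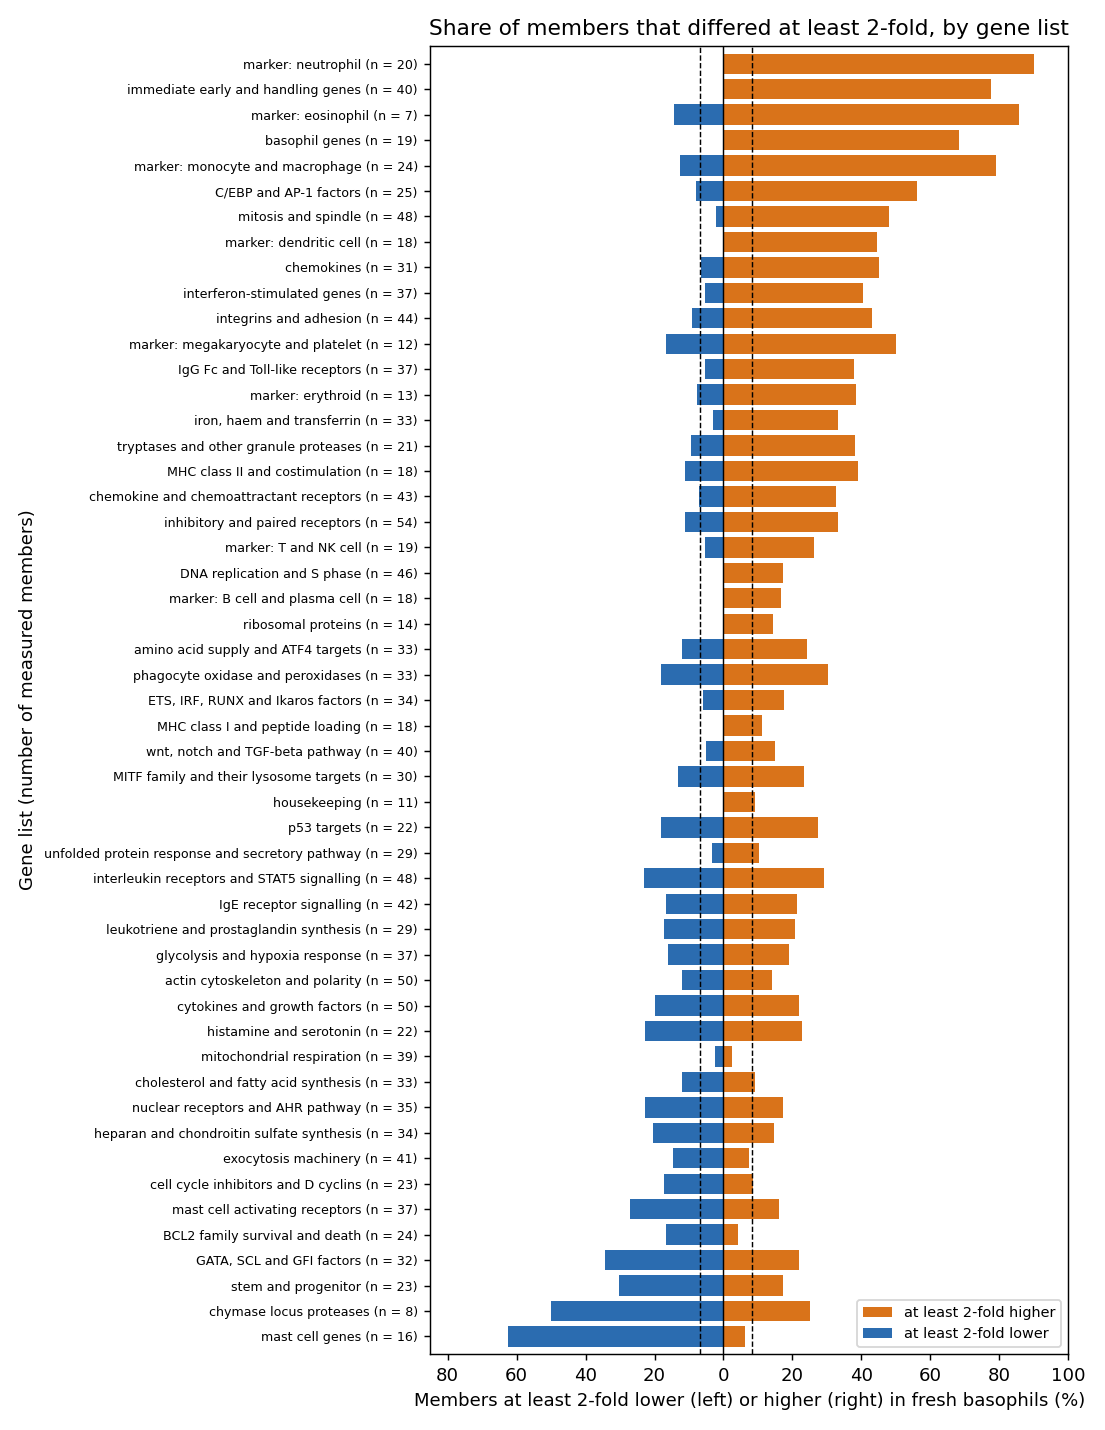
Share of the measured members of each of the 51 gene lists that were at least 2-fold higher (orange, to the right) or at least 2-fold lower (blue, to the left) in fresh basophils with adjusted p under 0.05; the number of measured members stands beside each name. The dashed lines are the shares over all 19084 genes, 8.16% higher and 6.87% lower.

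Among transcription factors of the C/EBP and AP-1 families, 15 of 25 were higher and 4 lower in fresh basophils (14 and 2 at least 2-fold, median 1.52, or 0.80 at the limit). Of the 5 genes with a Cebp symbol (Cebpa, Cebpb, Cebpd, Cebpe and Cebpg), 4 were higher. Cebpe, a factor of granulocyte maturation, read 952, 779 and 841 in fresh basophils and was at background in mast cells, at 14.3, 6.30 and 9.30, a fold of at least 28.6. Cebpb, a C/EBP of inflammation and emergency myelopoiesis, read 1597, 1253 and 1399.6 in fresh basophils and 115, 125 and 117 in mast cells (3.40 ± 0.11). Cebpd was also higher (1.99 ± 0.28). Cebpg, the family member without an activation domain, differed by -0.04 ± 0.13 and did not pass the test (adjusted p = 0.859). In the other direction, Batf, a basic leucine zipper factor, was lower (-2.81 ± 0.11), as was the stress factor Ddit3 (-1.26 ± 0.12). None of the 3 relatives of Mitf was lower in fresh basophils. Tfec was higher (0.86 ± 0.11, adjusted p = 3.86e-04), and Tfe3 (0.12 ± 0.11, adjusted p = 0.423) and Tfeb (adjusted p = 0.671) did not pass. Among lysosomal genes listed with them as targets of the family, Sqstm1, an autophagy receptor (-2.17 ± 0.09), and the sulfatase Sgsh (-2.37 ± 0.11) were lower, and the galactosidase Gla was higher (2.39 ± 0.10). That list counted 11 higher and 10 lower genes of 30 (7 and 4 at least 2-fold, median 0.14).

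The GATA, SCL and GFI group was split. Of 32 factors, 12 were higher and 13 lower (7 and 11 at least 2-fold, median 0.01). Tal1, which binds DNA together with GATA factors, read 5534, 6355 and 6096 in fresh basophils and 24514, 25025 and 25286 in mast cells, a difference of -2.06 ± 0.10. Its relative Lyl1 (-1.59 ± 0.11), Gata1 (-1.25 ± 0.11) and the GATA cofactor Zfpm1 (-1.04 ± 0.09) were lower in fresh basophils too. Gata2, needed for both lineages, read 9734, 11107 and 10106 in fresh basophils and 6990.3, 6271 and 7888 in mast cells (0.55 ± 0.12, adjusted p = 0.00624). Gata3, best known from T helper 2 cells, was lower in fresh basophils (-3.45 ± 0.11), as were the basic helix-loop-helix repressor Bhlhe40 (-3.83 ± 0.09), the progenitor factor Mycn (-3.72 ± 0.15) and the Notch target Hes1 (-1.96 ± 0.15). The inhibitors of basic helix-loop-helix factors went both ways, with Id1 higher (5.67 ± 0.10) and Id2 (-1.76 ± 0.10) and Id3 (-1.70 ± 0.13) lower. Higher in fresh basophils were also Lmo2 (2.24 ± 0.10), Klf2 (5.06 ± 0.26) and Klf4 (at least 12-fold).

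Of the ETS, IRF, RUNX, Ikaros and STAT factors, 13 of 34 were higher and 8 lower (6 and 2 at least 2-fold, median 0.25). Ets1, a founding member of the ETS family, was higher in fresh basophils, at 17753, 22159.5 and 23611, against 458, 506 and 579 in mast cells. Irf8, a factor of monocytes and basophil precursors, read 104, 125 and 124 in fresh basophils and was at background in mast cells (at least 3.93-fold higher). Stat4 (-1.46 ± 0.10) and the Ikaros relative Ikzf4 (at least 4.31-fold) were lower in fresh basophils. Spi1, which encodes PU.1, was lower by a small margin (-0.47 ± 0.11) that turned to 0.078 without normalization between arrays. Runx1 differed by 0.24 ± 0.10 and did not pass (adjusted p = 0.0866), while its second probe was higher by 0.48 ± 0.10 (adjusted p = 0.00428), and the gene passed under 5 of 17 alternatives. Of 23 stem and progenitor genes, 7 were higher and 10 lower (4 and 7 at least 2-fold, median -0.14). The homeobox genes Hoxa7 and Hoxa9 were at background in mast cells and at least 14.1-fold and 5.73-fold higher in fresh basophils. Mecom (-4.92 ± 0.10), the angiopoietin receptor Tek (at least 15.1-fold), the surface marker Cd34 (-4.08 ± 0.09), Meis1 (-2.10 ± 0.10) and Hlf (-1.74 ± 0.10) were lower in fresh basophils.

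Granule proteases were found on both sides. Of 8 measured proteases of the chymase locus, 2 were higher and 6 lower (2 and 4 at least 2-fold, median -1.73, or -1.58 at the limit). One of the lower ones, Mcpt9, was at background in both groups. The higher pair was Mcpt8 and cathepsin G, Ctsg, which read 15497, 14016 and 15602 in fresh basophils and 7248, 7050.5 and 5835 in mast cells (1.17 ± 0.12). Granzyme B, Gzmb, a killing protease of lymphocytes, read 921, 848 and 848 in fresh basophils and 24432, 24844 and 23134 in mast cells, a difference of -4.77 ± 0.09 (adjusted p = 9.11e-09). Its neighbour Gzmc was also lower (-2.75 ± 0.27). The chymase Cma1 read 79.3, 92.2 and 90.7 in fresh basophils, above background, and 26403, 26956 and 28119.5 in mast cells. Carboxypeptidase A3, Cpa3, a zinc protease of mast cell granules, sat at the scanner's ceiling in both groups, so no fold can be given for it. Of 21 tryptases and other granule proteases, 9 were higher and 5 lower (8 and 2 at least 2-fold, median 0.13, or 0.00 at the limit). Tpsb2 was lower, at 125, 103 and 102 in fresh basophils and 22837, 25286 and 21808 in mast cells. The probe of Tpsab1 lay at background on all 6 arrays. Prss28, a protease of the tryptase family next to Prss34, was at background in mast cells and at least 28.4-fold higher in fresh basophils.

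Cathepsins H, S and L, lysosomal cysteine proteases, were higher in fresh basophils. Cathepsin H, Ctsh, read 3516, 3221 and 3289 in fresh basophils and 33, 41.8 and 54 in mast cells, cathepsin S, Ctss, differed by 4.09 ± 0.10 and cathepsin L, Ctsl, by 2.55 ± 0.10, while cathepsin D, Ctsd, was lower by a small margin (-0.52 ± 0.10) that did not pass without normalization between arrays (-0.12). Cathepsins S and L are also known from macrophages, whose markers were higher on the same arrays (given above), and their part in these values was not tested.

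The stretches upstream of 3 of these protease genes are shown because Mcpt8 and Cma1 lie in the same locus on chromosome 14 and differ in direction, while Prss34 on chromosome 17 shares the direction of Mcpt8 (RefSeq, GRCm38.p6; 250 bases before the annotated start, read 5′ to 3′ on the strand of the gene). Capitals mark a GATA match, the only one in these windows for the 3 motifs searched on both strands, which were AGATAA or TGATAA for GATA factors, TCACGTG or TCATGTG for MITF and TTGCNNAA for C/EBP factors.
Mcpt8, minus strand, chr14:56085198-56085447: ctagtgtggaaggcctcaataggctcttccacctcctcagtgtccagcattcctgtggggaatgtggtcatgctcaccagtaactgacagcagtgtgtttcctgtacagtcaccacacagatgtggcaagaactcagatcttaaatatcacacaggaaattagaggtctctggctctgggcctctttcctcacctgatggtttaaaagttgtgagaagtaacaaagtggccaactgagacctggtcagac
Cma1, minus strand, chr14:55944676-55944925: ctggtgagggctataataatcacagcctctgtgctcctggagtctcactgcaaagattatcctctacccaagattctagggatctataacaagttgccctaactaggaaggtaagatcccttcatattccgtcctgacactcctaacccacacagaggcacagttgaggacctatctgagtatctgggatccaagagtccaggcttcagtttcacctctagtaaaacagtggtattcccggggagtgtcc
Prss34, plus strand, chr17:25298144-25298393: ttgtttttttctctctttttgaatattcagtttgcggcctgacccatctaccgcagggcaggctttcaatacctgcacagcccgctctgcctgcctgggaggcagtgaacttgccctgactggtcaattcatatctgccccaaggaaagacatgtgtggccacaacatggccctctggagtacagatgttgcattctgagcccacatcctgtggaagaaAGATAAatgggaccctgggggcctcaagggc
The GATA match of Prss34 begins 31 bases before the start. Of 32851 such windows in the RefSeq table, 16.6% held a GATA match, 6.28% the MITF letters and 9.56% the C/EBP letters. In windows of genes at least 2-fold higher in fresh basophils (1218 genes matched), the C/EBP letters stood in 9.65%, in those of genes at least 2-fold lower (1033 genes) in 6.74%, and in those of other measured genes in 8.43%. The MITF letters stood in 5.89%, 5.37% and 6.37% of the same windows, and the GATA letters in 11.5%, 12% and 12.7%. These are counts of letters and not of bound sites.

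Genes that build the granule matrix were found on both sides. Of 34 genes of heparan and chondroitin sulfate synthesis, 7 were higher and 15 lower in fresh basophils (5 and 7 at least 2-fold, median -0.17). Srgn encodes serglycin, the core protein that carries the chains, and differed by -0.16 ± 0.09 (adjusted p = 0.23). Among the sulfotransferases of heparin, Ndst2, which removes acetyl groups and adds sulfate in heparin, read 3469.8, 3669 and 3732 in fresh basophils and 8838, 8586 and 8009 in mast cells (-1.22 ± 0.09). The 6-O-sulfotransferase Hs6st2 was at background in fresh basophils, at 5.50, 3.50 and 8.30, and read 3918, 3544 and 3549 in mast cells. Its paralogue Hs6st1 (-1.77 ± 0.13), the 3-O-sulfotransferase Hs3st1 (-2.25 ± 0.11) and Papss2, which makes the sulfate donor (-1.15 ± 0.10), were also lower. Among the chondroitin enzymes, Csgalnact2 (2.09 ± 0.11), Csgalnact1 (at least 6.88-fold) and the polymerizing factor Chpf (3.58 ± 0.11) were higher, whereas the chondroitin synthase Chsy1 (-2.28 ± 0.11) and the sulfotransferase Chst11 (-1.30 ± 0.11) were lower. Heparanase, Hpse, which cuts heparan sulfate, was at least 4.85-fold higher.

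The enzymes that make histamine and serotonin differed in opposite directions. Hdc makes histamine from histidine, and read 19943, 19943 and 18774 in fresh basophils, against 322, 337 and 329 in mast cells (5.82 ± 0.09, adjusted p = 4.29e-09). Hnmt, which methylates and inactivates histamine, was at least 8.31-fold higher in fresh basophils. On the serotonin side Tph1 was joined by Ddc, which forms serotonin from its hydroxylated precursor and read 37.3, 16.2 and 16 in fresh basophils and 483, 403 and 426 in mast cells (-3.57 ± 0.20). Gch1, the first enzyme of tetrahydrobiopterin synthesis, the cofactor of Tph1, read 262, 278 and 236 in fresh basophils and 5112, 6120.2 and 4562 in mast cells (-4.26 ± 0.13). The next enzymes of that cofactor, Pts (-0.77 ± 0.16) and Spr (-0.95 ± 0.10), were lower by smaller steps, that of Pts not passing without normalization between arrays (-0.26), and Pcbd1, which recycles it, was higher (0.58 ± 0.11). Slc18a2, the vesicle transporter that loads both amines into granules, was lower (-1.39 ± 0.13), as was the oxidase Maob (-5.35 ± 0.09). Slc6a4, the serotonin uptake transporter, was higher in fresh basophils (1.51 ± 0.13), at 190.3, 233 and 206 against 66.2, 72.8 and 51.2 in mast cells. In all, 7 of 22 genes of this list were higher and 9 lower (5 and 5 at least 2-fold, median -0.05).

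Lipid mediator enzymes followed no single direction: 9 of 29 were higher and 11 lower (6 and 5 at least 2-fold, median -0.06). Ltc4s, leukotriene C4 synthase, read 234, 244 and 244 in fresh basophils and 4702, 5189.8 and 5134 in mast cells (-4.29 ± 0.09), and the related Mgst2 was lower too (-1.36 ± 0.15). Alox5, the first enzyme of all leukotrienes, was lower (-0.74 ± 0.09), and its partner protein Alox5ap differed by 0.22 ± 0.10 (adjusted p = 0.149). Tbxas1, thromboxane synthase, read 3182, 3446 and 3432 in fresh basophils and 21808, 22837 and 23992 in mast cells (-2.76 ± 0.10). The prostaglandin D2 synthase Hpgds (-2.32 ± 0.14) and Pla2g7, which breaks down platelet-activating factor (-3.04 ± 0.10), were lower too. The inducible cyclooxygenase Ptgs2 read 1520.3, 1195 and 1345 in fresh basophils and was at background in mast cells, at 3.50, 7.50 and -1.0. Also at background in mast cells was Hpgd, which degrades prostaglandins (at least 47-fold higher). Alox12e (4.75 ± 0.10) and the phospholipase Pla2g6 (3.14 ± 0.09) were higher as well. Ptgs2 is also an early response gene, and such genes were higher on the same basophil arrays (given above), and the part of handling in it was not tested.

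**Figure D4:**
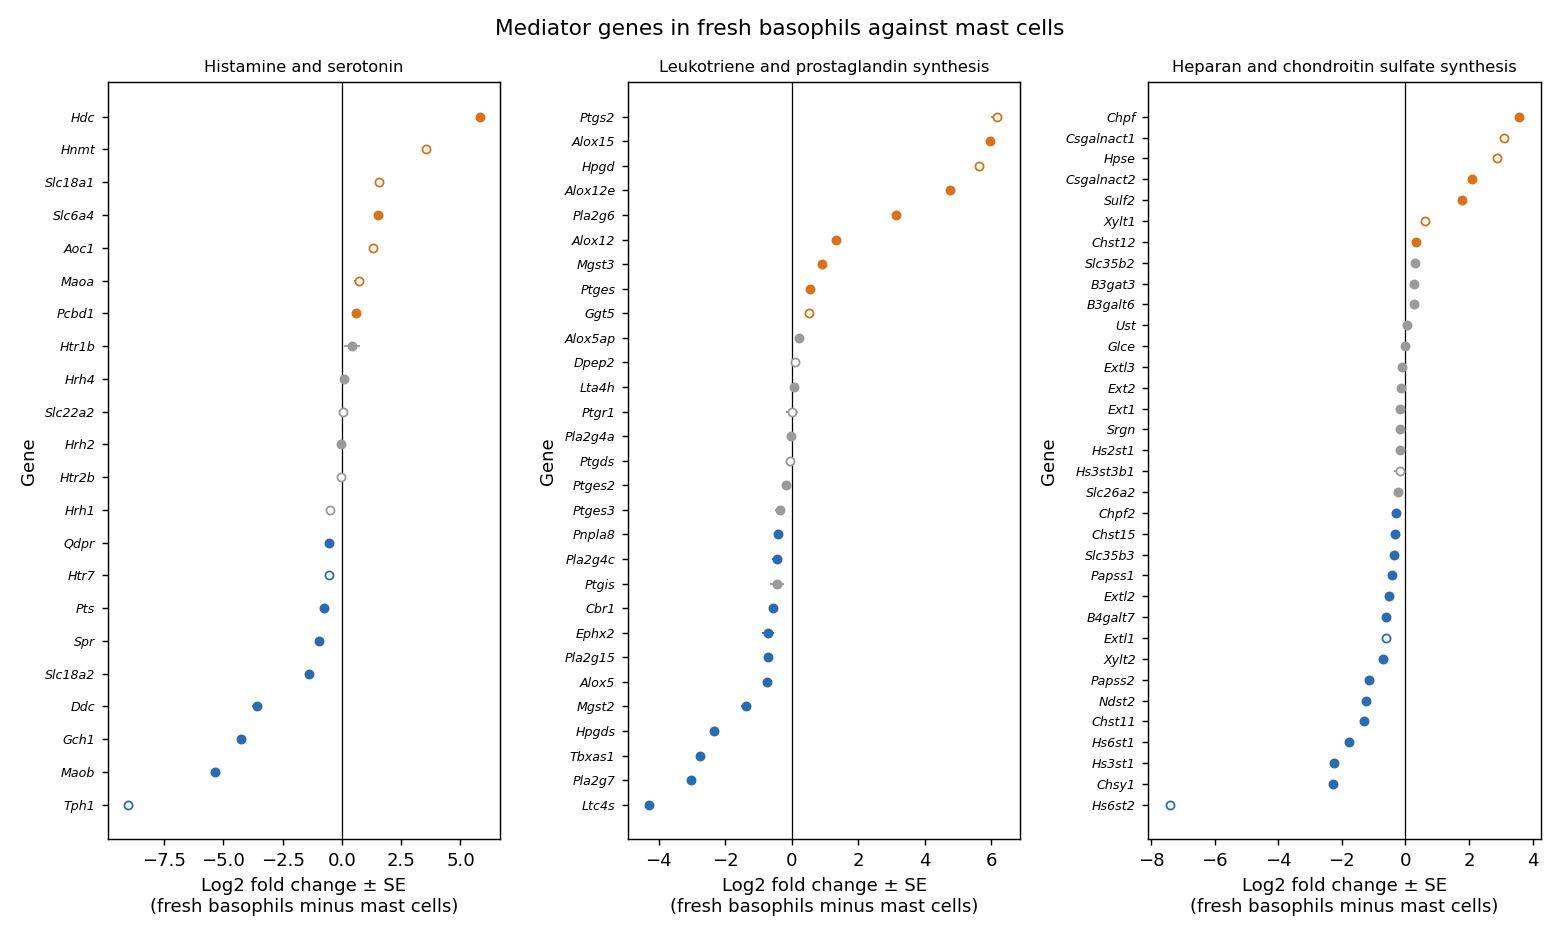
Log2 fold change ± SE (fresh basophils minus mast cells, n = 3 arrays each) for every measured gene of histamine and serotonin metabolism, of leukotriene and prostaglandin synthesis, and of heparan and chondroitin sulfate synthesis. Orange and blue points passed limma's test (adjusted p under 0.05), grey ones did not; open circles mark genes at background in at least 1 group. Hdc lies at the high end and Tph1 at the low end of the first panel.

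The IgE receptor chains were bright in both groups. Fcer1a, the chain that binds IgE, read 15961, 16118 and 17052 in fresh basophils and 23081, 22349 and 24112 in mast cells (-0.50 ± 0.09, adjusted p = 0.003), but the difference was -0.18 and did not pass without normalization between arrays. The signalling chains Ms4a2 (-0.23 ± 0.11, 95% interval -0.48 to 0.02) and Fcer1g (0.23 ± 0.09, 0.01 to 0.44) did not pass, though Fcer1g did under 5 of 17 alternatives. Downstream of it, 12 of 42 genes were higher and 15 lower (9 and 7 at least 2-fold, median 0.00). Among kinases that act near the receptor, Fyn (3.35 ± 0.21), Tec (3.06 ± 0.11) and Fgr (at least 30.4-fold) were higher, as was the phosphoinositide 3-kinase adaptor Pik3r5 (at least 7.07-fold). Rasgrp4, a Ras exchange factor of mast cells, read 80.2, 106 and 86.5 in fresh basophils and 1038, 969.7 and 985 in mast cells (-3.25 ± 0.12), and Rasgrp1 (-2.66 ± 0.09) and protein kinase C beta, Prkcb (-2.61 ± 0.11), were lower too. The lipid phosphatase Inpp5d, an inhibitor of the pathway, was lower (-1.59 ± 0.10). The adaptors Grb2 (0.00 ± 0.09) and Lat (0.12 ± 0.14) did not pass, with 95% intervals of -0.21 to 0.21 and -0.19 to 0.44.

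Of the exocytosis machinery, 10 of 41 genes were higher and 15 lower (3 and 6 at least 2-fold, median -0.12, or 0.00 at the limit). Rab38, a GTPase of melanosomes and other lysosome-related organelles, read 540.2, 531 and 511 in fresh basophils and 7050.5, 6832 and 7459.5 in mast cells (-3.71 ± 0.09). The Rab27 effector Mlph, known for carrying melanosomes, differed by -4.06 ± 0.12 and the Rab27 effector Sytl2 by -2.97 ± 0.11. The calcium sensors Syt9 and Cadps2 were at background in fresh basophils, at least 9.37-fold and 6.14-fold lower. The membrane fusion proteins moved less, with Vamp8 at -1.14 ± 0.10, Snap23 at -0.89 ± 0.11 and Stxbp2 at 0.39 ± 0.09, which did not pass with median scaling (0.33).

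Receptors for cytokines were found on both sides: 20 of 48 genes of receptors and STAT5 signalling were higher and 15 lower (14 and 11 at least 2-fold, median 0.08). Kit, the receptor for stem cell factor, read 270.3, 292 and 313 in fresh basophils and 16984, 16434 and 17224 in mast cells. Il4ra, a chain of the interleukin-4 and interleukin-13 receptors, read 49.3, 52.5 and 58.8 in fresh basophils and 3628, 3618 and 3918 in mast cells. Lower in fresh basophils were also Il9r (at least 5.41-fold), the interleukin-2 receptor alpha chain Il2ra (at least 7.09-fold), the interleukin-10 receptor chain Il10ra (-1.52 ± 0.09) and the TSLP receptor chain Crlf2 (-1.14 ± 0.09). Higher were both chains of the interleukin-18 receptor, Il18r1 (2.80 ± 0.10) and Il18rap (3.44 ± 0.15), the interleukin-25 receptor chain Il17rb (2.63 ± 0.18) and the interleukin-7 receptor chain Il7r (4.60 ± 0.16).

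For interleukin-3, the cytokine both groups had met, the specific chain Il3ra was higher (1.13 ± 0.16), and the shared chain Csf2rb (-0.70 ± 0.09) and its interleukin-3-specific copy Csf2rb2 (-1.64 ± 0.09) were lower in fresh basophils. Csf2rb and Csf2rb2 are near-identical, so the split of signal between their probes is uncertain. The STAT5 targets Cish, Socs2 and Socs1, which feed back on cytokine receptors, were lower. Cish read 1202, 1366 and 1278 in fresh basophils and 5624, 5697 and 5642 in mast cells (-2.13 ± 0.09), and Socs2 differed by -2.52 ± 0.10 and Socs1 by -1.74 ± 0.10. Pim1, another such target, differed by -0.04 ± 0.09 and did not pass (95% interval -0.25 to 0.18), though it was higher without normalization between arrays (0.31).

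Secreted proteins were mostly on the basophil side among chemokines and mixed among cytokines. Of 31 chemokines, 17 were higher and 3 lower (14 and 2 at least 2-fold, median 0.66, or 0.39 at the limit). Ccl3, a chemokine that attracts leukocytes, read 47797, 47797 and 43948 in fresh basophils, against 569, 486 and 646 in mast cells. Ccl4, a related chemokine, read 26634, 24514 and 24514 in fresh basophils, against 405, 418 and 360.2 in mast cells. Both were higher in fresh basophils. Ccl6 (4.94 ± 0.10) and Ccl9 (at least 46.7-fold), which lie beside them, were higher too. The lower chemokines included Ccl2, which draws monocytes (-3.17 ± 0.16), and Ccl1 (at least 2.12-fold). Of 50 cytokines and growth factors, 21 were higher and 15 lower (11 and 10 at least 2-fold, median 0.04).

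Il4 read 1406, 1099 and 1014 in fresh basophils and was at background in mast cells, at 2.50, 1.0 and 0.200. Its neighbour Il13 read 99.5, 81.5 and 101 in fresh basophils and 42.8, 55 and 67.8 in mast cells (0.64 ± 0.15), so the pair did not move to the same extent. Csf1 (3.92 ± 0.10), Il18 (3.24 ± 0.11) and oncostatin M, Osm (2.20 ± 0.10), were higher. Among growth factors of vessels and connective tissue, Vegfc was at background in fresh basophils (at least 16.5-fold lower), and Vegfa (-2.41 ± 0.09) and Pdgfa (-3.07 ± 0.13) were lower. So were the NAD-forming enzyme Nampt (-3.21 ± 0.10), Il12b (at least 7.99-fold) and the costimulator Tnfsf4 (at least 3.27-fold).

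Receptors that guide migration were more often on the basophil side. Of 43 such receptors, 18 were higher and 8 lower (14 and 3 at least 2-fold, median 0.25, or 0.01 at the limit). Cxcr4, which holds leukocytes in bone marrow, was at background in mast cells and at least 30.3-fold higher. The sphingosine-1-phosphate receptor S1pr1, which lets cells leave tissues, differed by 4.03 ± 0.10. The leukotriene B4 receptor Ltb4r1 read 5358, 6100.5 and 5720.5 in fresh basophils and 1109, 1029.9 and 1213 in mast cells (2.34 ± 0.11). Fpr2 (3.69 ± 0.12) and Ccr1 (1.95 ± 0.14) were higher as well. The fractalkine receptor Cx3cr1, a monocyte marker, was lower: it read 1538, 1323 and 1368 in fresh basophils and 18230.2, 20458 and 18073 in mast cells (-3.73 ± 0.11).

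Receptors for nucleotides and lysophospholipids were divided. In the list of receptors and channels that activate mast cells, 9 of 37 were higher and 14 lower (6 and 10 at least 2-fold, median -0.18). The lysophosphatidic acid receptors Lpar1 and Lpar6 were lower. Lpar6 read 1689.5, 1755 and 1693 in fresh basophils and 14887, 16118 and 13323 in mast cells (-3.09 ± 0.10), and Lpar1 was at background in fresh basophils (at least 64.9-fold lower). The ATP-gated channels P2rx7 (-3.44 ± 0.12) and P2rx4 (-1.87 ± 0.10), the adenosine receptor Adora3 (-1.56 ± 0.10), the thrombin receptor F2r (-1.19 ± 0.10), the potassium channel Kcnn4 (-1.62 ± 0.09) and the ATP-splitting enzymes Entpd1 (-1.70 ± 0.10) and Entpd3 (-1.91 ± 0.09) were lower too. All 5 probes of P2rx7 were lower, though one by only -0.33 ± 0.09 (adjusted p = 0.0199). Of 3 probes of Adora3, one did not pass (0.03 ± 0.10, adjusted p = 0.867). The purine receptors P2ry1 (1.58 ± 0.11), P2ry6 (at least 5.74-fold) and P2ry13 (1.97 ± 0.14) and the potassium channel Kcnj2 (3.26 ± 0.09) were higher. The probe of Mrgprb2, the mast cell receptor for basic peptides and drugs, was at background in fresh basophils and read 9.30, 9.50 and 41.7 in mast cells (adjusted p = 0.0654), and it passed as lower under 6 of 17 alternatives.

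Adhesion molecules leaned to the basophil side, with 25 of 44 higher and 5 lower (19 and 4 at least 2-fold, median 0.78). The integrin chains of blood leukocytes Itgb2 (4.51 ± 0.13) and Itgam (4.43 ± 0.27) were higher. Itga2, whose product CD49b is used to sort basophils, was at background in mast cells (at least 6.45-fold higher). E-cadherin, Cdh1, read 6108, 4293 and 5195 in fresh basophils and 119, 118 and 113 in mast cells (5.28 ± 0.14). Itgae, the alpha chain that binds E-cadherin, went the other way, at 141, 173 and 148 in fresh basophils and 8282, 8476 and 8282 in mast cells (-5.62 ± 0.10). Its partner chain Itgb7 differed by -0.31 ± 0.11 and did not pass (adjusted p = 0.062), though it was lower under 8 of 17 alternatives.

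Among inhibitory and paired receptors, 26 of 54 were higher and 11 lower (18 and 6 at least 2-fold, median 0.31, or 0.14 at the limit). Cd200r3, used as a marker of basophils and mast cells, was bright in both and differed by 0.14 ± 0.10 (adjusted p = 0.318), while its dimmer second probe was higher by 0.73 ± 0.10 (adjusted p = 5.40e-04). The lectin receptor Clec7a, which senses fungal glucans, was at background in mast cells, at 22, 28.2 and 27.3, against 1956, 1824 and 1730.1 in fresh basophils. Pilra (4.12 ± 0.10), Cd72 (3.36 ± 0.10) and Trem1 (at least 12.6-fold) were higher. Cd300lb (-2.93 ± 0.16), Havcr2, which encodes TIM-3 (-2.69 ± 0.10), and Milr1, an inhibitory receptor of mast cells (-2.17 ± 0.10), were lower. The innate sensors leaned to fresh basophils too. Of IgG Fc and Toll-like receptors and their signalling genes, 19 of 37 were higher and 6 lower (14 and 2 at least 2-fold, median 0.47). Fcgr4 was at background in mast cells and at least 71.5-fold higher. The activating Fcgr3 (1.17 ± 0.10) and the inhibitory Fcgr2b (1.14 ± 0.10) differed by about the same step. Tlr7, a sensor of RNA, was at least 5.16-fold higher and Tlr13, a sensor of bacterial RNA, differed by 2.78 ± 0.14. Tlr4, the sensor of lipopolysaccharide (-0.98 ± 0.12), and Cd180 (-1.42 ± 0.10) were lower.

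Of 35 genes of nuclear receptors and the aryl hydrocarbon receptor pathway, 11 were higher and 13 lower (6 and 8 at least 2-fold, median -0.22, or -0.02 at the limit). The lower ones included the aryl hydrocarbon receptor and several of its targets. The receptor Ahr read 44.5, 44.7 and 37.5 in fresh basophils and 740.4, 637 and 696 in mast cells (-3.60 ± 0.11). Its targets Cyp1b1 (at least 30.3-fold), Tiparp (-2.54 ± 0.11), Nqo1 (-2.07 ± 0.14) and the repressor Ahrr (-6.59 ± 0.10) were lower in fresh basophils, whereas Cyp1a1 lay at background on all 6 arrays. A dimmer second probe of Tiparp gave -0.24 ± 0.12 (adjusted p = 0.166). Of 33 genes of the phagocyte oxidase and of peroxidases, 12 were higher and 11 lower (10 and 6 at least 2-fold, median 0.00). The largest rise of this list was that of myeloperoxidase, Mpo (7.31 ± 0.10). It read 31190.5, 29577.8 and 32565.5 in fresh basophils and 171, 177.8 and 190.5 in mast cells. The lower ones included the antioxidant genes Srxn1 (-2.34 ± 0.11), Prdx4 (-3.80 ± 0.11), Txnrd1 (-0.99 ± 0.10) and Gclm (-0.92 ± 0.20), of which Gclm lost the call without normalization between arrays (-0.42). In the phagocyte oxidase, the catalytic chain Cybb was at background in mast cells (at least 11.4-fold higher in fresh basophils), the proton channel Hvcn1 (2.68 ± 0.10) and Ncf1 (1.01 ± 0.13) were higher, and Ncf4 was lower (-1.79 ± 0.09).

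Metabolic genes differed in both directions. Of glycolysis and hypoxia genes, 13 of 37 were higher and 11 lower (7 and 6 at least 2-fold, median 0.06). The hexokinase Hk3 read 4775, 4633 and 4885 in fresh basophils and 33, 30.5 and 29.3 in mast cells. The glucose transporter Slc2a3 (1.56 ± 0.09) and the oxygen sensor Egln3 (3.57 ± 0.10) were higher. The aldolase Aldoc (-3.20 ± 0.11) and the collagen prolyl hydroxylase P4ha1 (-2.36 ± 0.09) were lower. The glycolytic enzymes Pgk1 (0.04 ± 0.10, 95% interval -0.19 to 0.28) and Tpi1 (0.07 ± 0.09, -0.14 to 0.27) did not pass. Of 39 genes of mitochondrial respiration, 7 were higher and 8 lower (median 0.10). Only 1 was at least 2-fold higher (Dlst, 1.30 ± 0.10) and 1 at least 2-fold lower (Ndufs3, -1.33 ± 0.10). Of 33 genes of amino acid supply, 12 were higher and 11 lower (8 and 4 at least 2-fold, median -0.06). The glutathione-degrading enzyme Chac1 (3.29 ± 0.11) and the serine synthesis enzyme Psat1 (2.23 ± 0.11) were among the higher ones, and Cth, which makes cysteine, was at background in fresh basophils (at least 2.05-fold lower).

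Antigen presentation and iron handling leaned to the basophil side. Of 18 genes of MHC class II and costimulation, 11 were higher and 3 lower (7 and 2 at least 2-fold, median 0.78). The class II chain H2-Aa read 15857, 17052 and 16593 in fresh basophils and 4665, 4263 and 5071 in mast cells (1.82 ± 0.10), and its chaperone Cd74 differed by 3.02 ± 0.13. The costimulator Cd86 was higher (3.55 ± 0.11), and the peptide exchange chain H2-DMb1 was lower (-0.90 ± 0.10). Of 33 iron and haem genes, 14 were higher and 5 lower (11 and 1 at least 2-fold, median 0.14). Alas1, the first enzyme of haem synthesis, was higher (2.38 ± 0.10). The ferritin genes were lower, with Ftl1 at -1.05 ± 0.19 and Fth1 at -0.56 ± 0.13, of which Fth1 lost the call without normalization between arrays (-0.20).

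Genes of lipid synthesis and of the secretory pathway were found on both sides. Of 33 genes of cholesterol and fatty acid synthesis, 8 were higher and 15 lower in fresh basophils (3 and 4 at least 2-fold, median -0.19, or -0.03 at the limit). Sqle (-1.33 ± 0.10), Msmo1 (-1.17 ± 0.10) and Idi1 (-1.14 ± 0.18), enzymes along the way to cholesterol, were lower, and Elovl6, which lengthens fatty acids, was higher (2.44 ± 0.13). Of 29 genes of the unfolded protein response and secretory pathway, 9 were higher and 6 lower (3 and 1 at least 2-fold, median 0.00). The chaperone Hsp90b1 was higher (1.19 ± 0.09) and the translocon subunit Sec61b lower (-1.58 ± 0.10).

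Parts of the cytoskeleton differed as well. Of 50 such genes, 21 were higher and 10 lower (7 and 6 at least 2-fold, median 0.13). The actin crosslinker Actn1 differed by 4.62 ± 0.18 and the annexin gene Anxa1 by 3.75 ± 0.17. The nuclear lamins went opposite ways, with Lmnb1 higher (1.67 ± 0.09) and Lmna lower (-2.65 ± 0.09). Actb differed by 0.11 ± 0.13 (adjusted p = 0.578). In the Notch, Wnt and TGF-beta list, 17 of 40 genes were at background in both groups, and 6 were higher and 8 lower (6 and 2 at least 2-fold, median -0.07). The receptor Notch1 (2.27 ± 0.11) and its feedback target Nrarp (at least 16.7-fold) were higher, and the Notch target Hes1 (-1.96 ± 0.15) was lower.

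Cell cycle genes were mostly on the side of fresh basophils, but not of cultured ones (sums given below). Of 48 mitosis and spindle genes, 41 were higher and 1 lower (23 and 1 at least 2-fold, median 0.96). Mki67, the proliferation antigen, read 5312, 5333 and 5497 in fresh basophils and 1816, 1925 and 1825 in mast cells (1.53 ± 0.09). Of 46 replication genes, 31 were higher and 4 lower (8 and 0 at least 2-fold, median 0.63), among them E2f2 (3.05 ± 0.12), Cdc45 (1.70 ± 0.10) and Rrm2 (1.45 ± 0.13). Of 23 cell cycle inhibitors and D cyclins, 6 were higher and 9 lower (2 and 4 at least 2-fold, median -0.16). The cell cycle inhibitor Cdkn1a (-1.69 ± 0.10) and the cyclin Ccnd2 (-1.80 ± 0.16) were lower in fresh basophils. Of 24 genes of the BCL2 family and cell death, 7 were higher and 9 lower (1 and 4 at least 2-fold, median 0.04). The survival gene Bcl2 (-2.00 ± 0.10) and its killer opponent Bcl2l11 (-1.30 ± 0.13) were both lower, and Mcl1 was higher (0.48 ± 0.10).

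Cultured basophils were kept at the same 20 ng/ml of interleukin-3 as the mast cells, though for 5 days and not 4 weeks, and their levels are set beside those of both groups without a test. The values come from the 3 arrays of Cebpa +/+ RosaYFP/creER basophils without drug, and all are normalized over 18 arrays. Hdc read 19796, 19796 and 18528 in fresh basophils, 20515, 21177 and 20392 in cultured basophils and 308, 322 and 314 in mast cells. Prss34 read 44127, 45456 and 45456 in fresh basophils, 47688, 49573 and 49573 in cultured basophils and 1454, 1486 and 1636 in mast cells. Ets1 read 17368, 21858 and 23528 in fresh, 26925, 28456 and 28130.1 in cultured basophils and 434, 478 and 547 in mast cells. All 3 genes stayed above every mast cell array in cultured basophils.

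Several genes lay between. Tph1 read 15.4, 14.5 and 21.8 in fresh basophils, 1567, 1678 and 1742 in cultured basophils and 17109, 16772 and 16471 in mast cells. Kit read 260.3, 279.6 and 300.1 in fresh basophils, 2106, 2222 and 2347 in cultured basophils and 16726, 16201 and 16928 in mast cells. The chymase Cma1 read 78.3, 91.1 and 89.6 in fresh basophils, 8464, 8904 and 8996 in cultured basophils and 26925, 27722 and 29182 in mast cells. Each of these mast cell genes was brighter on every cultured basophil array than on every fresh one and still below every mast cell array. Granzyme B, Gzmb, read 860.4, 794 and 794 in fresh basophils, 13752, 14787 and 14415 in cultured basophils and 24379.8, 24880.4 and 22961 in mast cells. Cebpa read 2232, 2393 and 2105 in fresh basophils, 2280.2, 2602 and 2226 in cultured basophils and 56.8, 63.8 and 45.7 in mast cells. Gzmb thus also lay between the groups, while Cebpa in cultured basophils overlapped its range in fresh ones. Cebpe read 889, 731 and 788 in fresh basophils, 169.8, 177 and 198 in cultured basophils and 14.6, 6.50 and 9.60 in mast cells. The oxidase chain Cybb read 373, 299 and 310.4 in fresh basophils, 73.1, 66.4 and 88.7 in cultured basophils and 2.60, 7.70 and 3.80 in mast cells. Fosb, of the early response list, read 4033, 4329.9 and 4233 in fresh basophils, 70.3, 78.1 and 67.8 in cultured basophils and 13.2, 9.80 and 12.2 in mast cells. Cebpe, Cybb and Fosb were dimmer on every cultured basophil array than on every fresh one, and brighter there than in mast cells.

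Lists were summed on each array, and the median sums of the 3 arrays are given. Early response genes summed to 163412 in fresh basophils, 82162 in cultured basophils and 35066 in mast cells. Neutrophil markers summed to 127208 in fresh basophils, 44560.4 in cultured basophils and 7632 in mast cells. Eosinophil markers summed to 49262 in fresh basophils, 4929 in cultured basophils and 689.9 in mast cells. Prg2 alone made up most of the eosinophil sum in fresh and in cultured basophils. Monocyte and macrophage markers summed to 69443 in fresh basophils, 43332 in cultured basophils and 27954 in mast cells, where Cx3cr1 made up most of the sum. The list of mast cell genes summed to 64617 in fresh basophils, 84664 in cultured basophils and 200812 in mast cells, and Cpa3, at the scanner's ceiling in all, made up most of the sum in fresh basophils. The list of basophil genes summed to 246476 in fresh basophils, 246051 in cultured basophils and 71042 in mast cells. Cultured basophils thus had a basophil sum close to that of fresh cells, and sums of early response, neutrophil, eosinophil and macrophage genes below those of fresh cells. Other lists went the other way. Megakaryocyte and platelet markers summed to 3389 in fresh basophils, 15798 in cultured basophils and 3660.2 in mast cells. Dendritic cell markers summed to 28409.9 in fresh basophils, 37029.7 in cultured basophils and 12422 in mast cells. Interferon-stimulated genes summed to 41944 in fresh basophils, 90291 in cultured basophils and 31225 in mast cells. These 3 sums were higher in cultured than in fresh basophils. Mitosis and spindle genes summed to 87574 in fresh basophils, 22811 in cultured basophils and 49352 in mast cells. Replication genes summed to 63171 in fresh basophils, 25121 in cultured basophils and 50069 in mast cells. Both cell cycle sums were thus lowest in cultured basophils.

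**Figure D5:**
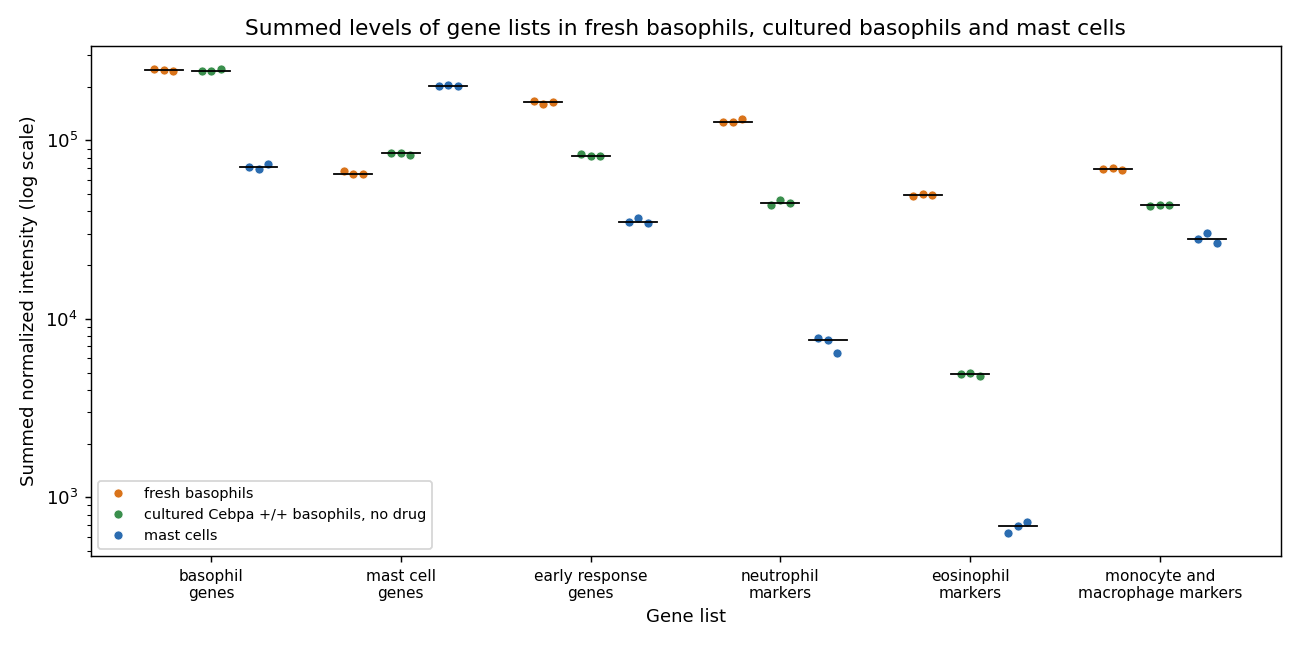
Summed intensity of 6 gene lists, normalized over 18 arrays and drawn on a log axis, for fresh basophils (orange), cultured Cebpa +/+ basophils without drug (green) and mast cells (blue), 3 arrays each, with bars at the group medians. Neutrophil, eosinophil and macrophage markers are lower in cultured than in fresh basophils, while basophil genes are at about the same sum.

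The ranking by size of change was led in fresh basophils by Fos (at least 606-fold) and Retnlg (at least 438-fold). Camp (8.41 ± 0.18), Slc40a1 (8.37 ± 0.25) and Vcam1 (8.33 ± 0.16) came next. Fos had the largest rise of the early response list, Retnlg of the neutrophil list and Slc40a1 of the monocyte and macrophage list. In cultured Cebpa +/+ basophils without drug, normalized with the whole series, Retnlg read 12319.5, 12789 and 12184. Its fresh values, normalized over the compared arrays only, were 12558, 13030 and 13795. On the same scales Fos read 976, 965 and 1060 in cultured and 18647, 16984 and 18873 in fresh basophils. Slc40a1 read 1759, 1600 and 1607 in cultured and 13741, 14845 and 14674 in fresh basophils. Retnlg was thus near its fresh level, unlike Fos and Slc40a1. The ranking also held further genes outside these lists. Lower in the ranking of raised genes stood the lysosomal sulfatase Arsb (at least 133-fold), the surface glycoprotein Thy1 (at least 103-fold), the ubiquitin ligase Rnf144b (at least 106-fold), Msantd3 (7.77 ± 0.22), Igsf6 (6.77 ± 0.26) and Ms4a6c (at least 84.2-fold). Igsf6 was uneven among fresh basophils, at 3606, 7198 and 7044, and all 3 values lay far above the mast cell values of 44, 36.7 and 29.3. On the mast cell side stood the orphan receptor Gpr176 (-6.51 ± 0.12), the protease inhibitor Ctla2b (-6.48 ± 0.14), the lipid flippase Atp8b5 (-6.39 ± 0.09), the actin-binding advillin, Avil (-6.39 ± 0.09), the tumour suppressor Hic1 (at least 51.4-fold lower in fresh basophils), the protease inhibitor Spint1 (at least 35.9-fold), the glutamate receptor subunit Grin2c (at least 44.4-fold) and the progesterone receptor Pgr (at least 58.5-fold). Neb, Frmpd1 and Fam155a were at background in fresh basophils and at least 44.7-fold, 40.6-fold and 48.6-fold lower.

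Of the 12 brightest genes of each cell type, 5 were shared. Cd63, a granule membrane tetraspanin released to the surface on degranulation, and Cpa3 were at the ceiling in both. A dimmer second probe of Cd63 read 479.6, 457.5 and 496.2 in fresh basophils and 210.3, 182 and 226.7 in mast cells. That Cd63 probe was higher in fresh basophils (1.16 ± 0.11, adjusted p = 6.13e-05 in limma's test). The sialoglycoprotein gene Spn read 44408, 42452 and 42452 in fresh basophils and 39647, 38221 and 43948 in mast cells and did not pass the test (adjusted p = 0.54). Among the 12 brightest of fresh basophils, Ccl3, Prss34, Mcpt8, Prg2 and the annexin gene Anxa2 were higher there. Anxa2 read 35171, 38221 and 37559 in fresh basophils and 805, 805 and 1012 in mast cells (5.39 ± 0.12). Among the 12 brightest of mast cells, the actin-severing scinderin, Scin, was lower in fresh basophils, at 2311, 2686 and 2647 in fresh basophils and 35171, 27470.3 and 35171 in mast cells (-3.66 ± 0.13). A dimmer second probe of Scin read 341.7, 4.5 and 345 in fresh basophils and 9733.5, 9998.3 and 4.5 in mast cells. That probe did not pass limma's test (adjusted p = 0.339). For 203 genes the 95% interval of the log2 difference lay within 0.25 either way, among them the translation factor gene Eif3f and the adaptor gene Grb2. A gene present on all 3 arrays of one cell type at 100 or more and at background on all 3 of the other was found 250 times for fresh basophils and 107 times for mast cells.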

How the data were processed

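Total RNA was hybridised with one dye to oligonucleotide arrays. The authors deposited one intensity per probe and array, with the background already subtracted so far as values below 0 show, and without normalization between arrays so far as differing medians show; neither step is given in the sources used here. Of 26423 probes, 21876 carried one gene symbol in the platform annotation and 4547 none. Intensities of the 6 arrays were quantile-normalized, 16 was added, and the log2 values went into limma's moderated test (version 3.58.1, R 4.3.3), which was two-sided, with Benjamini-Hochberg adjustment over all 26423 probes and a threshold of 0.05. The probe with the highest mean over 18 arrays stood for each of 19084 genes, of which 2424 had several probes. Precision is limited by having 3 arrays a group. The median SD of log2 values was 0.0877 in fresh basophils and 0.105 in mast cells, over 9479 probes above an intensity of 100. A bound on a fold set the mean of the bright group against the higher of 30 and the dim signal. In simulated data with 26423 probes, only 67, 67 and 66 of the brighter probes were changed, by 0.5, 1 and 2 on the log2 scale. The fit recovered 5.97%, 88.1% and 100% of these, with 7 false calls. In the real data 9988 probes passed, which makes the adjusted threshold less strict, so these shares do not give the power of this comparison. Genes are named as markers, as members of 51 gene lists, or by rank (the 25 largest differences each way, the 12 brightest of each cell type, the 10 brightest with a 95% interval within 0.25). Not every gene that met these rules is named. The comparison, markers and lists were chosen with earlier results of these data known. Figures were drawn with matplotlib in Python.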

Additional observations from a re-analysis of the deposited data

How the results depend on the processing

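Of 17 alternatives, the one without normalization between arrays changed the counts of calls by more than 1.5 times: 6776 genes were then called higher and 1826 lower in fresh basophils. Leaving out 1 array at a time gave 3181 to 3432 higher genes, 3686 to 4030 lower genes and 2802 to 2943 genes with at least a 2-fold difference. An offset of 50 left 2100 genes with at least a 2-fold difference, and with probes averaged per gene there were 2743. Each of the 51 list medians moved by over 0.1 under some alternative, so a list median near 0 gives no direction. The replicate numbers did not pair the arrays: deviations of same-numbered arrays correlated at -0.0619, -0.175 and -0.0314, and no array of either group correlated best with its own number. With the replicate number as a block, 3492 genes were higher, 4057 lower and 2871 at least 2-fold different. Of 252 named genes that passed the test, 7 lost the call under some alternative. Stxbp2 lost it with median scaling. Without normalization between arrays Ctsd, Fcer1a, Fth1, Gclm and Pts lost it in the same direction, Spi1 turned to 0.078 and Pim1, which had not passed, turned to 0.31. Of 20 named genes that had not passed, 15 passed under some alternative and 8 under one that kept normalization between arrays. Itgb7 passed under 8 alternatives, Mrgprb2 under 6, Fcer1g and Runx1 under 5, Alox5ap under 3, and Cd200r3 and Ms4a2 under 2. With a background limit of 50 in place of 30, 378 genes were bright in fresh basophils and at background in mast cells, and 180 were the other way round. Signal near background limits the dim genes, and the scanner's ceiling limits Cpa3 and Cd63.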

Other observations

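The RefSeq table placed 12290 measured protein-coding genes that were above background in at least 1 group. Neighbours in this order, which skips unmeasured and dim genes lying between them, formed 19 runs of 4 or more. All genes of a run were at least 2-fold different in the same direction, with 13 runs higher and 6 lower in fresh basophils. These runs were looked for after the values were seen and have no test. The longest, of 10 genes on chromosome 13, held replication-dependent histone genes (H1f4, H2ac6, H2bc4, H1f6, H1f2, H2bc3, H2ac4, H3c1 and H1f1) and the iron regulator Hfe. Histone genes are near-identical in sequence, and how far their probes share signal was not tested. A run of 6 on chromosome 19 held membrane genes of the Ms4a family (Ms4a7, Ms4a4a, Ms4a4c, Ms4a6c, Ms4a6b and Ms4a6d), while Ms4a2, the IgE receptor chain of the same family, was not among them.

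Of 2424 genes with several probes, 563 had at least 2 probes past the test, and in 64 of these the probes differed in direction. In 0 of them did both probes reach 2-fold in opposite directions; limma's calls were used, and no other tool was run. Within a group, 9 of 26423 probes on fresh basophil arrays and 8 on mast cell arrays read over 1000 on at least 1 array and under 30 on another. Among them was Hk2, which read 12048, 5.50 and 15440 in fresh basophils, against 3644, 3754 and 3730.2 in mast cells, and Psmb9, which read 3311, 3156 and 3192 in fresh basophils, against 2994, 2359 and 7.0 in mast cells. Neither passed the test.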
